A study of Drosophila melanogaster with 12 samples.

Results

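Stretches of open chromatin that were found in both dissected tissues, on the gene-rich parts of the chromosome arms, are described here. They were chosen from the deposited regions by position: a region had to lie on the euchromatic part of chromosome arm 2L, 2R, 3L, 3R or X and to overlap a region of the other tissue's table by at least 1 bp. This gave 287 of 3447 regions labelled fat body and 283 of 2906 labelled gut, 570 of 6353 in all. Joined where they overlapped, they formed 277 loci. Since a region exists only where signal was found, that both tables hold a region at these loci is how they were chosen and not a result.

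The data come from adult female Drosophila melanogaster and were made by ATAC-seq, a method that reads open chromatin from where the transposase Tn5 can place adapters. S106 and UAS-foxo were present in all flies. S106 is a GeneSwitch line, whose activator works only when the steroid RU486 is fed, and it is used to drive transgenes in fat body and gut. Flies were mated for 48 h and kept on 10% yeast and 5% sucrose. Switched flies ate 200 µM RU486 for 21 days and then control food for 7 days, control flies ate no RU486, and each of the 4 groups (control or switched, from fat body or gut by label) had 3 libraries. The comparison asks whether foxo activity in early adult life leaves a trace in chromatin after it has ended. Only switched flies ate RU486, so the drug and the induction cannot be told apart. The labels do not say whether libraries came from separate animals, and p-values then measure only the spread between these libraries, which may be technical. Each library holds many cells, so fewer cells of a type and less open chromatin per cell cannot be told apart.

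Open chromatin marks promoters and enhancers, where nucleosomes are displaced and transcription factors bind. Elements open in many tissues often serve widely used genes, while enhancers tend to be open in few cell types. The fat body is the fly's counterpart of liver and adipose tissue, and the gut absorbs food and renews its lining. The transcription factor foxo is kept out of the nucleus when insulin signals through InR and Akt, and in the nucleus it switches on genes of metabolism and stress resistance.

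Total counts were 811020 to 1186153 in the libraries labelled fat body. Those labelled gut had 519099 to 709659, except both numbered 1, with 111244 (control) and 99191 (switched). Switched replicate 3 labelled fat body also stood apart: 32.7% of its nuclear counts lay off the euchromatic arms, against 55.9% to 59.7% in the other 5. Over all protein-coding genes, 7.26% held a region labelled fat body and 11.9% one labelled gut. Of 15 gut identity genes, 3 held regions labelled fat body and 2 held regions labelled gut. Fat body and digestive enzyme genes did not sit where the labels would put them. Of 14 fat body marker genes 3 held regions labelled fat body and 8 held regions labelled gut, and of 33 digestive enzyme genes the numbers were 7 and 1. For this reason each tissue is given here as its label. What this means for the shared loci was not tested, and of these lists only Lsp1beta, a larval storage protein gene, lay at one. The native foxo gene held 1 region in each table (chr3R:14056777-14056894 and chr3R:14062292-14062415), which do not overlap, so it is not among the shared loci, and counts there would not show the activity of the transgene.

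The 277 loci were spread over all arms, 50 on 2L, 50 on 2R, 46 on 3L, 68 on 3R and 63 on X, and 261 of them joined exactly 1 region of each table. The overlap had a median of 103 bp and ran from 3 to 1635 bp, and the midpoints of overlapping regions lay a median of 42 bp apart. Of the 293 overlapping pairs, the region labelled gut was the longer in 207, and 270 overlapped by at least 50% of the shorter region. The pairs just inside the rule lay at Nt5b (3 bp of overlap), CG2865 (5 bp) and IscU (6 bp), and those just outside lay at Gs2 (a gap of 1 bp), at Ubi-p5E (2 bp) and in a stretch of the X chromosome with no gene within 1000 bp (7 bp).

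Shared regions were longer and more reliably covered than the other euchromatic regions of their table. In the table labelled fat body their median length was 130 bp against 93 bp for 1019 others, and their median total over 6 libraries was 543 counts against 257. Labelled gut, the lengths were 206 bp against 138 bp for 1766 others, with totals of 139 against 121 counts. Counts in all 6 libraries were present at 66.6% of shared regions labelled fat body against 30.4% of the others, and labelled gut at 38.9% against 21.0%. A longer or deeper region has more chances to overlap another, so these properties are not independent of the rule.

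Where the shared regions lay with respect to genes was not part of the rule. The shared regions of both tables mark the same 277 loci, with midpoints a median of 42 bp apart. Their shares are therefore alike by the rule and are not separate results. In the table labelled fat body 97 of 287 shared regions, 33.8% (95% Clopper-Pearson interval 28.3% to 39.6%), were centred no more than 500 bp from either end of a protein-coding gene. Other euchromatic regions of that table did so in 18.2% (15.8% to 20.7%). The order was the opposite labelled gut, where 97 of 283 shared regions, 34.3% (28.8% to 40.1%), lay at a gene end against 50.7% (48.3% to 53%) of the others. Among regions with counts in all 6 libraries the shares were 31.9% against 21.6% labelled fat body and 34.5% against 51.6% labelled gut. For the latter regions the intervals overlapped labelled fat body (25.4% to 39.1% against 17.2% to 26.6%) and did not labelled gut (25.7% to 44.2% against 46.4% to 56.8%). The intervals cover counting error only. Which end of a gene is its start was not known here, so a gene end stands for a start or a termination site.

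**Figure D1:**
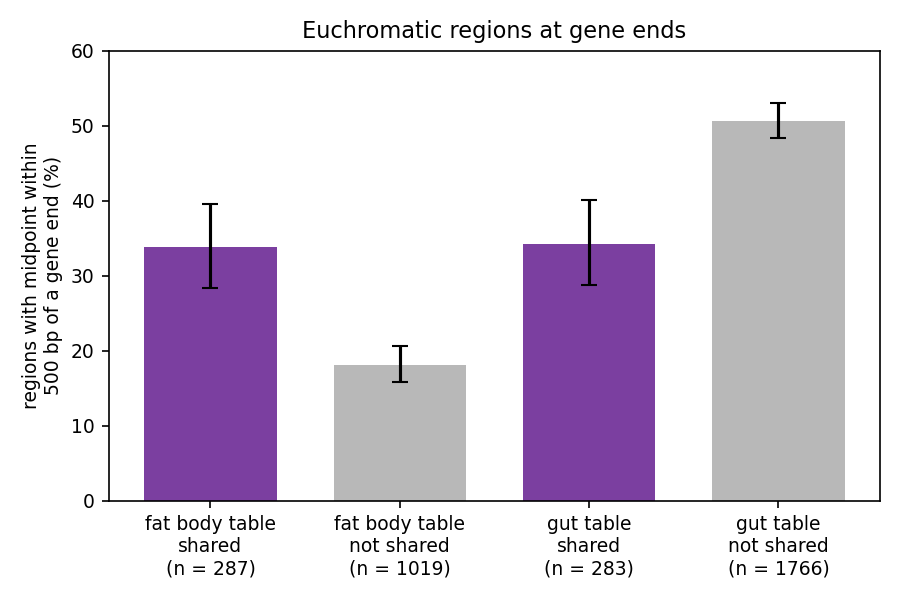
Percentage of euchromatic regions (vertical axis) centred no more than 500 bp from either end of a protein-coding gene, for shared and other regions of each table (bars, with n below). Error bars are 95% Clopper-Pearson intervals. Both shared sets, which mark the same loci and so are alike by the rule, sit near 34%, at 33.8% and 34.3%. This is above the other regions labelled fat body (18.2%) and below those labelled gut (50.7%).

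Of the 277 loci, 222 overlapped a protein-coding gene, 28 lay within 1000 bp of one, and 27 had none that close. They named 248 different genes, 1.78% of 13962 protein-coding genes. These genes were long, with a median span of 10387 bp against 2160 bp for all genes, as genes with any region were (9250.5 bp labelled fat body and 6135.5 bp labelled gut). A long gene offers more room for a region. At 26 genes there were at least 2 shared loci. The most were at tara (4 loci), which encodes a regulator of the cell cycle and of sleep, and at nej (3 loci), which encodes the histone acetyltransferase CBP. Others with 2 were EcR and Eip74EF of the ecdysone response, the corepressor gene Smr, the kinase gene Tlk, the general transcription factor gene Trf2, the sex determination gene dsx, the stress response gene cnc, spen, and the neighbouring genes HmgD and HmgZ of HMG-box chromatin proteins.

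Among loci with counts in all 12 libraries, those among the highest in level, in normalised counts (CPM) per kilobase of region averaged over both tables, lay at CG9837, CG1142, CG42238 and a stretch of 3L with no gene within 1000 bp. HmgZ and HmgD, a locus 989 bp from the autophagy gene Atg9, the choline transporter-like gene Ctl2, CG5853, tara, CG32834, the peroxiredoxin gene Prx6c, the myosin VI gene jar, imd with Dp1, and a stretch of 2L without a gene were also among the highest 15. CG9837 ranked 3 labelled fat body with 1886 CPM per kb and 10 labelled gut with 884 CPM per kb. CG1142 ranked 1 labelled gut with 1843 CPM per kb and 118 labelled fat body with 799.5 CPM per kb. Over the 262 loci with at least 10 counts in each table, the levels of both tables had a Spearman correlation of 0.63. This is a description across loci, which share libraries, and the tables were normalised separately. The highest 50 of both tables had 14 loci in common, and how many unrelated rankings would share was not tested.

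Some loci, picked from those with the largest differences in rank between the tables, were high on one side only. The locus at tun (chr2R:15817063-15817187) had rank 5 labelled fat body and 163 labelled gut, and the locus over cup, CG34310 and Galt had ranks 6 and 183. Labelled gut the cup locus had 0, 0 and 49 counts in control libraries against 0, 39 and 27 in switched ones, so its rank rests on few libraries. On the other side, CG9932, a zinc-finger protein gene, had rank 177 labelled fat body and 11 labelled gut. The locus at Sec63, a gene of protein import into the endoplasmic reticulum, had ranks 200 and 20. Labelled gut its control libraries had 59, 114 and 91 counts and its switched ones 11, 329 and 87.

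Coverage of single loci was uneven. Of the 277 loci, 89 had counts in all 12 libraries and 152 had them in all 10 once both gut libraries numbered 1 were left out. At 8 loci each table held under 10 counts, with totals of 3 to 5 over the 12 libraries. Within control libraries labelled fat body the coefficient of variation of normalised counts had a median of 64.5% over tested shared regions, against 92.4% over other tested euchromatic regions. In switched libraries it was 71.9% for both, and labelled gut it was 55.2% against 77.5% in control and 86.7% against 91.2% in switched libraries. Differences between groups at single loci have to be read against this spread.

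The shared regions took up a larger part of the euchromatic counts labelled fat body than labelled gut. They were 287 of 1306 euchromatic regions labelled fat body and 283 of 2049 labelled gut. They were also longer than the others, so the size of their part is not independent of the rule. In control libraries labelled fat body the shared regions held 46.3%, 47.1% and 40.1% of euchromatic counts, and in switched ones 27.2%, 31.6% and 44.7%. Switched replicates 1 and 2 lay below every control library and switched replicate 3 lay among them. The means were 44.5% ± 3.83 (SD, n = 3) and 34.5% ± 9.12 (SD, n = 3), a difference of -9.99 percentage points. An exact two-sided permutation test gave p = 0.2, where 0.1 is the smallest value possible, so the groups were not set apart. Without switched replicate 3 the difference was -15.1 points, with an exact p of 0.1, the smallest these libraries can give.

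Labelled gut, the shared regions held 20.8%, 18.2% and 16.5% of euchromatic counts in control libraries against 19.1%, 16.3% and 17.3% in switched ones. The groups overlapped, at 18.5% ± 2.18 (SD, n = 3) and 17.6% ± 1.44 (SD, n = 3), with a difference of -0.91 points (exact two-sided permutation p = 0.6). It was 0.24 points without control replicate 1. Set against all nuclear counts, the difference labelled fat body was -0.49 points, and against all counts it was 1.65 points. The mitochondrial share of counts there was 87.1% ± 2.41 in control libraries against 78.6% ± 4.34 in switched ones (SD, n = 3). The part of the mitochondrial share and of switched replicate 3 in these differences was not tested beyond these values.

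**Figure D2:**
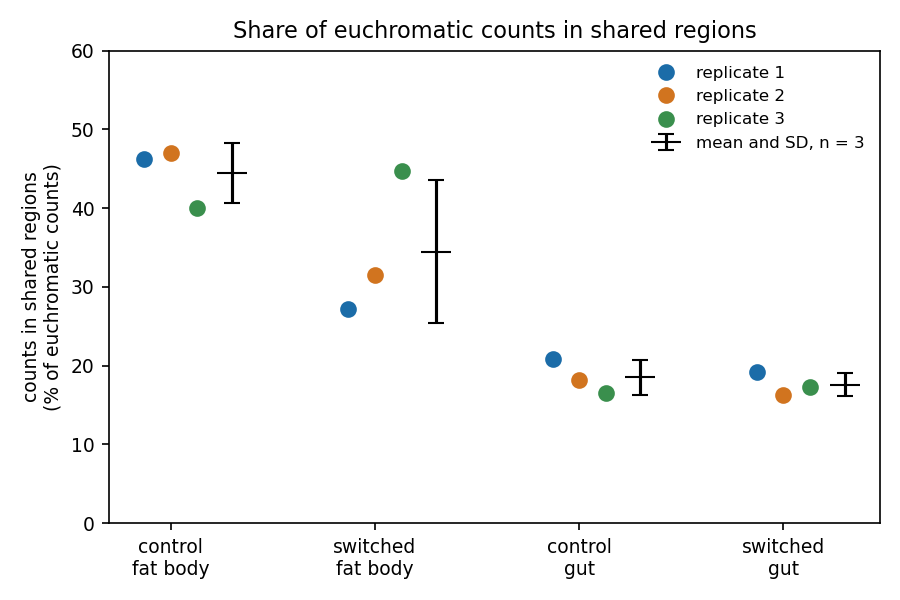
Counts in shared regions as a percentage of each library's euchromatic counts (vertical axis) for the 4 groups. Coloured points are libraries by replicate number, and black marks are the mean and SD of 3 libraries. Labelled fat body, switched replicates 1 and 2 (27.2% and 31.6%) lie below the control libraries while replicate 3 (44.7%) lies among them, and labelled gut all 6 libraries lie between 16.3% and 20.8%.

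More shared regions were covered in switched than in control libraries labelled fat body: 269, 264 and 271 of 287 had a count, against 260, 250 and 240. The other euchromatic regions of that table changed in coverage by more, with a count at 66.2%, 63.1% and 64.1% of them in control libraries and 85.5%, 77.9% and 77.5% in switched ones, so the difference is not one of shared regions alone. Of shared regions, 90.6%, 87.1% and 83.6% were covered in control libraries and 93.7%, 92.0% and 94.4% in switched ones. In the number of covered shared regions all switched libraries lay above all control libraries (exact two-sided permutation p = 0.1, the smallest that 3 against 3 libraries can give). Labelled gut the control libraries covered 216, 262 and 250 of 283 and the switched ones 147, 258 and 248, lowest in the shallow libraries numbered 1. Nuclear counts labelled fat body were 129657 to 164720 in control libraries and 160218 to 229212 in switched ones, in an order that differed from that of the covered regions, and their part in it was not tested.

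At single shared regions labelled fat body, none passed edgeR's quasi-likelihood test, and the region of lola was called with DESeq2. Of the 287 regions 265 passed the filter on low counts and were tested, and 22 were not. edgeR called 0 higher and 0 lower at a Benjamini-Hochberg adjusted p under 0.05, as it did over the whole table (0.0% of 1674 regions either way), and the smallest adjusted p of a shared region was 0.189. At an unadjusted p under 0.05 there were 2 higher and 0 lower, or 0.755% of the shared regions higher against 3.88% of the table (0.896% of the table lower). DESeq2 called 1 shared region higher and 0 lower, against 2.87% of the table higher and 0.299% lower. At an unadjusted p under 0.05 it gave 7 higher and 2 lower, 2.64% and 0.755%, against 6.09% and 1.55% of the table. The adjusted p of DESeq2 was undefined at 3 shared regions.

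The region at lola (chr2R:10530735-10530830), a gene for a family of BTB zinc-finger transcription factors known from axon guidance, had 1, 0 and 0 counts in control libraries against 111, 85 and 238 in switched ones labelled fat body. It was almost uncovered in control libraries and covered in every switched library. With these counts it could pass the filter on low counts only through the switched libraries. Its change is therefore not independent of its being tested. Counts summed over the switched group, divided by its summed normalised library sizes, were 338 times those of the control group. This ratio rests on 1 control count, and its 95% interval for counting error alone was 60.4 to 13382. Its fitted change of 7.89 ± 1.76 (log2, SE) had an edgeR adjusted p of 0.189 and a DESeq2 adjusted p of 2.91e-05. Across the edgeR alternatives the adjusted p ran from 0.0397 (no filter on low counts) to 0.644 (with the replicate number as a block, whose numbers do not pair these samples). Labelled gut, the locus had 11, 22 and 11 counts in control libraries against 0, 18 and 55 in switched ones, and the groups overlapped.

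None of the other 9 regions named by the smallest edgeR p labelled fat body passed (adjusted p = 0.984 for each). The second by p on the higher side was mmd (chrX:15956290-15956391), for a metalloprotease-like protein of the ADAM family, with 17, 14 and 16 counts in control libraries against 115, 164 and 77 in switched ones. All 3 switched libraries lay above all 3 control libraries, and the log2 fold change was 2.61 ± 1.15 (SE). The RNA helicase gene mahe had 0 to 39 counts in control and 117 or more in switched libraries. The late endosome gene Rab7 had 15, 30 and 75 against 166, 83 and 267, and homer, for a synaptic scaffold protein, had 11, 1 and 0 against 119, 22 and 90. These 3 genes were also separated without overlap in normalised counts.

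On the lower side, the region over CG5783 and JMJD4 (chr2L:18157016-18157161), the latter a jumonji-domain gene, had 64, 83 and 86 counts in control libraries against 6, 7 and 40 in switched ones, with a log2 fold change of -2.59 ± 1.36 (SE). CG12914 had 44, 204 and 174 counts against 58, 34 and 56. Sply, for sphingosine-1-phosphate lyase, had 36, 130 and 194 against 54, 15 and 0. In normalised counts these 3 were separated without overlap. RpL3, a ribosomal protein gene, had 58, 487 and 65 against 84, 42 and 0, where 1 control library carried most counts, and without control replicate 2 its log2 fold change was smallest in size at -0.81. The actin regulator gene Whamy had 251, 702 and 611 against 503, 172 and 147, and its groups overlapped.

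Complete separation of the groups in normalised counts occurred at 10 shared regions with switched libraries above (3.77%, against 10.7% of all tested regions) and at 12 with switched libraries below (4.53%, against 5.5%). Besides those named, the upper set held the exchange factor gene Exn, the ferritin genes Fer1HCH and Fer2LCH, the glutathione transferase gene GstT4, SPoCk, a calcium pump, and 1 region without a gene. Exn had 19, 26 and 34 counts in control libraries against 115, 121 and 108 in switched ones, and the ferritin region had 0, 28 and 49 against 76, 153 and 339. The lower set held Mrp4, a transporter gene, with 300, 214 and 253 against 154, 141 and 189 counts. It also held nej, mam (a Notch coactivator gene), CycY, imd with Dp1, HmgZ with HmgD, CG1677, CG14190 and 1 region without a gene. Those outside the 10 regions named above by p were chosen after their values were seen. None of them passed the edgeR test, with an adjusted p of 0.984 for each of them. In raw counts some groups of the lower set overlapped, such as at HmgZ with HmgD, and there the separation rests on the normalisation.

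Over all 265 tested shared regions labelled fat body the median log2 fold change was 0.15, against 0.25 over all 1674 tested regions, with quartiles of -0.56 and 0.77. Values above 0 numbered 148 (55.8%) and values below 0 numbered 117, against 57.3% above 0 in the table. This split moved with the scaling: with library totals alone 81.5% of shared regions lay above 0 (75.4% of the table) and the median was 0.96 against 0.94 over the table, and with factors from euchromatic regions alone 46.2% lay above 0 (61.4%) with medians of -0.07 and 0.45. It moved as much with 1 library. Switched replicate 3 was the highest of the 6 libraries at 128 of the 265 regions (48.3%), and its median normalised count there was 146.6 CPM, against 54.4 and 62.0 in switched replicates 1 and 2 and 63.8 to 89.2 in control libraries. Without it, 90 of 271 regions (33.2%) lay above 0, the median was -0.44 against 0.11 over the table, and 0 shared regions were called after adjustment. At an unadjusted p under 0.05 there were then 4 shared regions higher (1.48%, against 4.59% of the table) and 12 lower (4.43%, against 2.53%).

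**Figure D3:**
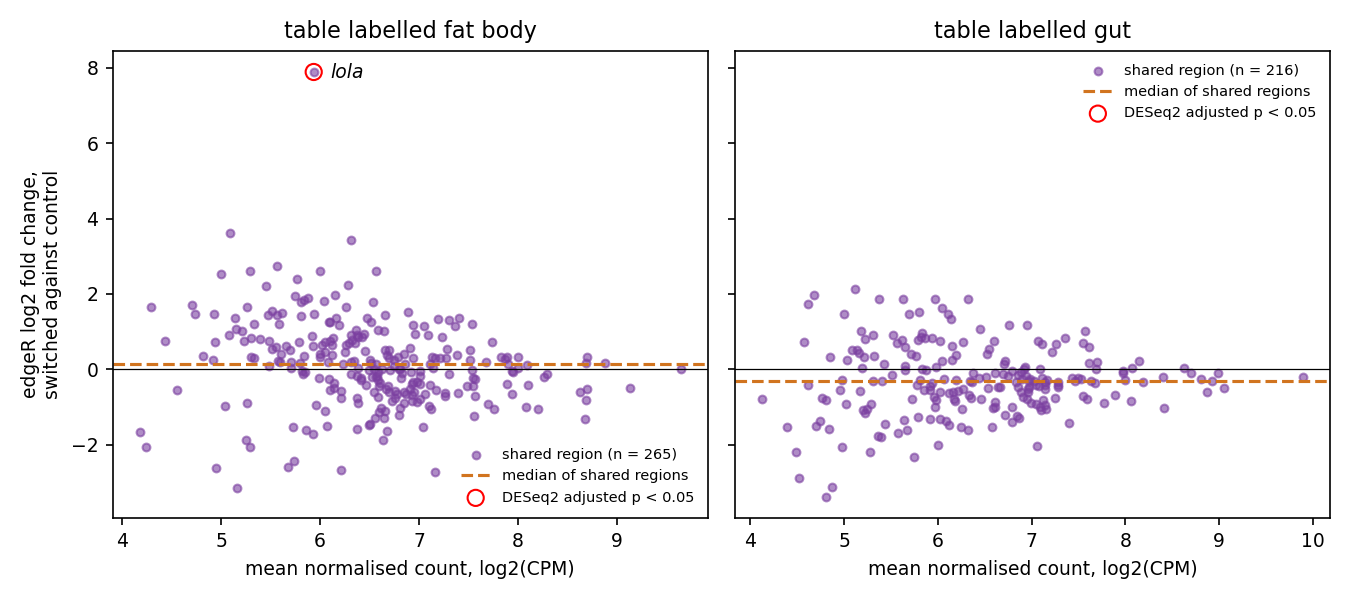
edgeR log2 fold change of switched against control libraries (vertical axis) against the mean normalised count on a log2 scale (horizontal axis) for tested shared regions labelled fat body (left, n = 265) and labelled gut (right, n = 216). Dashed lines are the medians, 0.15 and -0.31, and the red circle marks the region of lola at 7.89, the 1 region called with DESeq2.

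Labelled gut, no shared region passed either test. Of 283 regions 216 were tested and 67 were not, and edgeR and DESeq2 each called 0 (0.0% of 1944 regions in the table with either tool). At an unadjusted p under 0.05 both tools gave 0 shared regions, against 0.412% of the table higher and 1.18% lower with edgeR and 1.03% and 2.21% with DESeq2. The median log2 fold change was -0.31, against -0.23 over all tested regions, with quartiles of -0.81 and 0.24, and 70 regions (32.4%) lay above 0 against 40.9% of the table. Without switched replicate 1, which had no count at 86 of the 216 regions, 119 of 238 regions lay above 0 and the median was 0.00. Without both libraries numbered 1 the median was -0.20.

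The regions with the smallest edgeR p labelled gut had an adjusted p of 1.00 each. CdGAPr (chr2L:19791682-19791888), for a GTPase-activating protein, had 6, 30 and 24 counts in control libraries against 0, 8 and 0 in switched ones, with a log2 fold change of -3.37 ± 1.96 (SE). That value rests on switched replicate 2: without it all switched libraries were at 0, and the fitted value of -7.08 depends on the prior count. Both groups were apart in normalised counts, as they were for Prx6b (peroxiredoxin; 38, 72 and 112 against 0, 9 and 52), CG2865 (12, 15 and 24 against 0, 10 and 0), Muc68Ca (mucin; 12, 12 and 12 against 0, 9 and 0) and the kinase regulator gene Mob2 (16, 30 and 47 against 0, 17 and 9). In each of these 5, switched replicate 1, the shallowest library, had 0 counts.

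On the higher side, the region over imd and Dp1 had 2, 60 and 37 counts in control libraries against 24, 104 and 79 in switched ones, with a log2 fold change of 1.18 ± 1.15 (SE), or 0.67 without control replicate 1. Its groups were apart in normalised counts. The regions at AGO1 with mRpL53 and CG33155 (0, 48 and 1 against 31, 40 and 50), hang (3, 2 and 7 against 0, 56 and 30), tai (0, 24 and 12 against 0, 47 and 82) and IscU (1, 12 and 0 against 0, 18 and 35) overlapped between groups. AGO1 encodes the Argonaute protein of microRNAs, hang a zinc-finger protein of the response to ethanol, tai a coactivator of the ecdysone receptor and IscU a scaffold of iron-sulphur cluster assembly. Complete separation occurred at 4 shared regions with switched libraries above (1.85%, against 3.65% of the table) and at 17 below (7.87%, against 7.15%). The upper set also held the malic enzyme gene Men, the hexokinase gene Hex-A and CG31221.

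Whether both tissues moved together was asked at the loci themselves. Of 277 loci 262 were tested for an interaction of tissue and induction, and edgeR and DESeq2 called 0 of them (0.0% of 617 merged loci in all). At an unadjusted p under 0.05 edgeR gave 5 loci with a higher ratio labelled fat body and 0 with a lower one, 1.91% against 3.57% of all merged loci (0.972% lower), and DESeq2 gave 8 higher and 0 lower, against 4.21% higher. The smallest adjusted p was 0.927 with edgeR and 0.173 with DESeq2, both at lola, with a log2 ratio of ratios of 7.06 ± 2.18 (SE). At 212 loci tested in both tables, 36 log2 fold changes were above 0 in both, 61 were below 0 in both, 82 were above 0 labelled fat body and below 0 labelled gut, and 33 the other way. Across these loci the fold changes of both tissues had a Pearson r of -0.10 and a Spearman correlation of -0.13, given as a description, since loci of the same libraries share depth and scaling.

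Besides lola and CdGAPr, the loci with the smallest interaction p lay at Eip74EF, CG32354 and gce. Eip74EF encodes an ETS factor of the ecdysone response and gce a receptor of juvenile hormone. The Eip74EF locus (chr3L:17573846-17574076) had 71, 2 and 251 counts in control libraries against 169, 150 and 368 in switched ones labelled fat body, and 0, 13 and 19 against 0, 0 and 0 labelled gut. With 3 counts over the switched group as the floor, and the 32 control counts taken as exact, the level labelled gut was 11.8-fold lower in switched libraries. This allows for counting error of the switched group only, and is not a bound once the control counts are also taken as uncertain. The region labelled gut did not pass the filter on low counts, so its change was not tested there. The gce locus had 40, 6 and 20 against 61, 52 and 145 labelled fat body, and 0, 30 and 32 against 0, 6 and 2 labelled gut. The edgeR adjusted p of the interaction was 0.927 at Eip74EF and 1.00 at CdGAPr, CG32354 and gce.

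**Figure D4:**
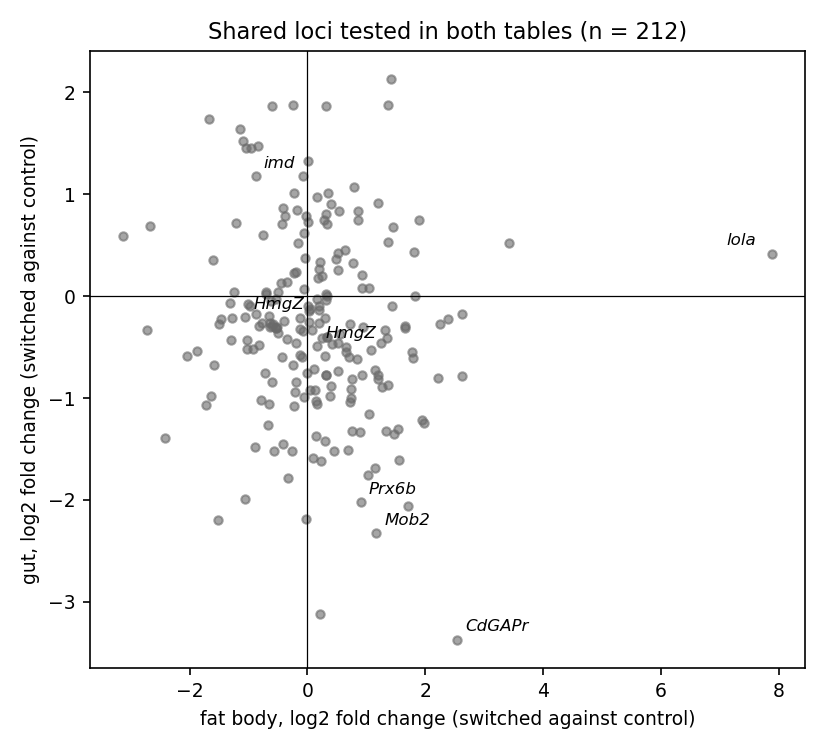
edgeR log2 fold change of switched against control libraries labelled gut (vertical axis) against that labelled fat body (horizontal axis) at the 212 shared loci tested in both tables (points). The points form no line (Pearson r of -0.10); lola lies far to the right at 7.89, and CdGAPr lies lowest at -3.37 labelled gut.

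Which pathways had a shared locus can be read from 16 gene lists. Genes of hormone reception and the ecdysone response had the most, with 8 of 26 annotated genes: EcR (the ecdysone receptor), Eip74EF, Eip75B, ftz-f1 and Eip93F of its cascade, the coactivator gene tai, and Kr-h1 and gce of the juvenile hormone response. The list of transcription and chromatin regulators had 7 of 42: the Polycomb group genes Psc, Su(z)2 and ph-p, the GAGA factor gene Trl, lola, the homeodomain gene hth and cbt. FOXO and insulin signalling had 4 of 26, namely InR, Akt, S6k and SNF4Agamma, a subunit of AMP-activated kinase. Stress response and heat shock had 4 of 33, namely cnc and its inhibitor gene Keap1, the AP-1 gene kay and Ets21C. By comparison, 1.78% of all protein-coding genes had a shared locus. Many of these genes are long, and the lists were chosen with earlier results of these data known, so nothing particular to a list is drawn from these counts.

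Single genes came from the chromatin remodellers (dom), the immune genes (imd), the muscle markers (sls) and the fat body markers (Lsp1beta), and 3 from the housekeeping list (Ubi-p63E, Ubi-p5E and RpL3). Lipid storage and metabolism had 0 of 26 genes at a shared locus, although 18 held regions labelled gut and 1 held one labelled fat body. Digestive enzymes had 0 of 33, with 7 genes labelled fat body and 1 labelled gut. The gut identity, neuronal, haemocyte, ovary and oenocyte lists had 0 as well. Of the markers of other cell types, sls had 72, 66 and 3 counts in control libraries against 56, 18 and 126 in switched ones labelled fat body, and 14, 2 and 5 against 5, 7 and 0 labelled gut. Lsp1beta had counts labelled fat body in switched replicate 1 alone (73 counts).

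At the insulin pathway loci edgeR called 0 regions in either tissue. InR (chr3R:21619199-21619443) had 119, 76 and 169 counts in control libraries against 66, 25 and 130 in switched ones labelled fat body, and 0, 44 and 2 against 1, 114 and 43 labelled gut. The groups overlapped in both. Akt, the kinase that phosphorylates foxo, had 76, 18 and 0 against 119, 36 and 225 labelled fat body, and 0, 19 and 5 against 21, 24 and 14 labelled gut. S6k, for the growth-promoting S6 kinase, had 74, 0 and 37 against 58, 32 and 200 labelled fat body. Labelled gut its counts of 12, 28 and 36 in control and 0, 34 and 11 in switched libraries were separated in normalised counts, with the switched libraries below. Of the 4 regions 3 were above 0 on the log2 scale labelled fat body (57.3% of the table above 0), and 2 of 3 tested ones labelled gut (40.9%).

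The hormone loci had 11 tested regions labelled fat body, 8 above and 3 below 0 with a median log2 fold change of 0.49, and 8 labelled gut, 4 above and 4 below 0 with a median of 0.03. None was called. Over all tested regions, 57.3% lay above 0 with a median of 0.25 labelled fat body, and 40.9% with a median of -0.23 labelled gut. Eip75B, a nuclear receptor gene, had 242, 112 and 256 counts in control libraries against 56, 245 and 571 in switched ones labelled fat body, where the groups overlapped. Labelled gut it had 20, 57 and 25 against 9, 13 and 15, and in normalised counts all switched libraries lay below. EcR had a pair of loci on 2R: the first had 31, 50 and 84 against 51, 33 and 316 labelled fat body, and the second had 123, 191 and 36 against 29, 4 and 316. In both, switched replicate 3 held more counts than any other library of that tissue. Kr-h1 was covered in all 6 libraries labelled gut, with 43, 212 and 120 against 41, 226 and 66 counts.

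The chromatin regulator loci had 7 tested regions in each tissue, 5 above and 2 below 0 labelled fat body (median log2 fold change 0.92) and 3 above and 4 below labelled gut (median -0.33), and lola alone was called, by DESeq2 only. All tested regions had medians of 0.25 labelled fat body (57.3% above 0) and -0.23 labelled gut (40.9% above 0). The Polycomb gene Psc had 211, 219 and 442 counts in control libraries against 134, 96 and 633 in switched ones labelled fat body. Its neighbour Su(z)2 had 86, 32 and 0 against 134, 38 and 301, and ph-p had 125, 60 and 41 against 226, 61 and 554. Switched replicate 3 was again the highest library at all 3, and the groups overlapped in both tissues. Trl had 21, 110 and 183 against 87, 97 and 301 labelled fat body and 0, 15 and 20 against 0, 18 and 42 labelled gut.

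Of the 5 stress response loci, 4 were above and 1 was below 0 labelled fat body, 1 was above and 4 were below labelled gut, and none was called. Of all tested regions 57.3% lay above 0 labelled fat body and 40.9% labelled gut. Keap1, which holds cnc in check, had 186, 106 and 87 counts in control libraries against 57, 65 and 213 in switched ones labelled fat body. Labelled gut it had 20, 31 and 23 against 2, 14 and 23. The first cnc locus had 136, 11 and 0 against 151, 47 and 170 labelled fat body, and 13, 97 and 73 against 0, 155 and 20 labelled gut. The remodeller gene dom had 23, 67 and 84 against 178, 203 and 33 labelled fat body, where switched replicates 1 and 2 were above and replicate 3 was not. All of these groups overlapped.

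**Figure D5:**
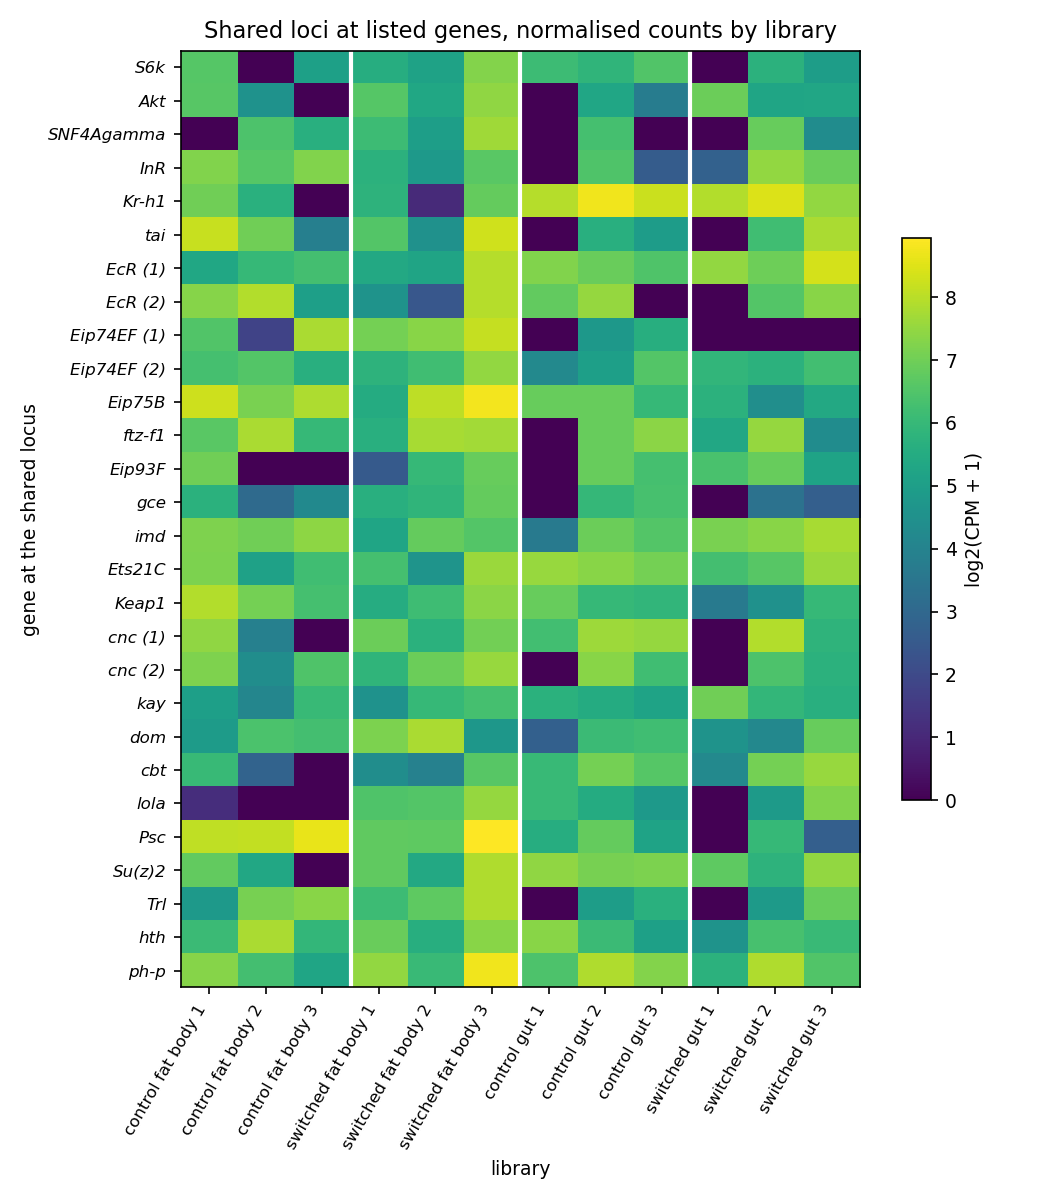
Normalised counts as log2(CPM + 1) (colour) at shared loci of 6 gene lists (rows, by gene) in the 12 libraries (columns, groups divided by white lines). The darkest cells are 0 counts; they are frequent in both gut libraries numbered 1, and the lola row is dark in the 3 control libraries labelled fat body and lit in the 3 switched ones.

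Genes with several shared loci allow a check of loci against each other. At tara the 4 loci had counts labelled fat body that were highest in switched replicate 3 in every case, and the longest one (chr3R:16249977-16250779) had 496, 755 and 894 in control and 533, 389 and 2010 in switched libraries. Labelled gut that locus had 33, 230 and 251 against 35, 299 and 196. At nej the 3 loci did not move alike labelled fat body: the first had 54, 47 and 181 counts in control libraries against 109, 116 and 277 in switched ones, and the third had 92, 79 and 70 against 3, 51 and 35, with normalised counts of all switched libraries below. Over HmgZ and HmgD, the first locus had 320, 333 and 406 against 135, 94 and 467 counts labelled fat body, with normalised counts of all switched libraries below. In raw counts switched replicate 3 was the highest there, so that separation rests on the normalisation. The second locus had 386, 228 and 437 against 251, 181 and 1173, which overlapped. So the loci of 1 gene did not always order the libraries in the same way; no test was made between them.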

How the data were processed

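ATAC-seq read counts per region were deposited by the authors in 1 table per tissue, not normalised. The submitters' processing notes name FastQC, Trimmomatic, MACS2, featureCounts and DESeq2. Not given in the sources used here were the aligner, genome build, pooling for peak calling, removal of duplicates and shift to the Tn5 cut site. Duplicates left in would raise the spread between libraries. The members, lists and tests were chosen with earlier results of these data known.

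Coordinates are those of the files, 1-based. The build was settled from the data: shared regions fell at gene ends of Release 6 in 33.8% and 34.3% of cases, against 15.0% to 19.8% after moves of 5000 or 10000 bp. Both shares come from the same loci. Genes came from RefSeq spans of Release 6 (protein-coding, overlapping or the nearest within 1000 bp), without strand or exons, so reads of overlapping genes cannot be told apart. The euchromatic limits were starts below 22000000 (2L), above 6000000 (2R), below 22900000 (3L) and below 21500000 (X) and ends above 4200000 (3R). No sequence or motif was read, as no genome sequence was used here.

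Each whole table was fitted with edgeR 4.0.16 (R 4.3.3), by TMM and a quasi-likelihood F test after filterByExpr at count and total minimums of 10 and 15, which kept 1674 of 3447 and 1944 of 2906 regions. Adjustment was by Benjamini-Hochberg over each table, and an adjusted p under 0.05 was a call. The standard error is the fold change over the square root of F. DESeq2 1.42.0 on the same regions was the alternative. The interaction was fitted with edgeR on 857 merged loci of all chromosomes. Shares used exact permutation tests over libraries. The fits were also run on simulated counts, whose outcome is not given here and is not used as support.

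Regions were named as the 15 highest loci, the 5 higher and 5 lower regions by p in each tissue, the 5 loci by interaction p, list members, genes with several loci and pairs at the edge of the rule; 1 locus that the rule names is not reported here. Every pair of libraries differed beyond counting noise, and none was merged. Same-numbered gut libraries deviated together from their group means (correlations of 0.299, 0.218 and 0.113, all above the bound of 0.1). Control replicate 3 with switched replicate 2 also passed this bound (0.128), so the correlations do not single out the same numbers as pairs. No label tells what the number stands for. The main fits and the permutation tests did not pair libraries, and the number was used as a block only in an alternative fit. PCR copies are not independent molecules, so intervals cover counting error only, and the floor covers that of the switched group only.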

Additional observations from a re-analysis of the deposited data

Results flagged for a closer look

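The locus over imd and Dp1 (chr2R:18413454-18413699) had fold changes of opposite sign in the tissues, neither of which passed the test. The gene imd encodes the adaptor of the Imd immune pathway and Dp1 an RNA-binding protein with KH domains. Labelled fat body it had normalised counts of 147, 128 and 172 CPM in control and 36.8, 113 and 92.3 CPM in switched libraries, all switched below all control libraries. Labelled gut it had 11.5, 122 and 92.6 CPM in control and 139, 162 and 216 CPM in switched libraries, all switched above. The difference between the tissues did not pass the test: the log2 ratio of ratios was -1.82 ± 1.45 (SE), with an edgeR unadjusted p of 0.224 and an adjusted p of 1.00 over 617 merged loci. It was the 1 locus of 277 where all switched libraries lay on opposite sides in both tissues. In raw counts labelled fat body 1 switched library (104) lay above 1 control library (102), so the separation rests on the normalisation.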

How the results depend on the processing

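The 0 edgeR calls at shared regions held in both tissues and in the interaction under all alternatives run, except that labelled fat body 1 region (lola) was called without a filter on low counts and 1 (lola) by DESeq2. The median log2 fold change of shared regions labelled fat body was 0.96 with library totals alone and from -0.44 to 0.31 with 1 library left out at a time, and it was negative without switched replicate 3; labelled gut it ran from -0.60 to 0.00. The difference in the share of euchromatic counts was 1.65 points labelled fat body as a share of all counts, and -15.1 to -6.33 points with 1 library left out; labelled gut it ran from -1.93 to 0.24 points. Gene-end shares with 1000 bp in place of 500 bp were 47.4% and 46.6%. With the replicate number as a block 0 shared regions were called in either tissue and in the interaction, and the medians were 0.02 and -0.46; same-numbered libraries labelled fat body did not deviate together (correlations of 0.00, -0.03 and -0.07). Without both gut libraries numbered 1, and with scaling factors from euchromatic regions alone, both chosen after seeing the data, 0 were called. The 25 regions named by p were picked from these same data, and the alternatives refit mostly the same libraries. A kept direction was therefore likely beforehand. For these regions 333 values under alternatives kept their direction, and 2 were now past the threshold, both at lola (7.99 without a filter, 8.34 with DESeq2). The cause of these changes was not tested. The median SE of a log2 fold change was 1.17 labelled fat body, 1.49 labelled gut and 1.88 for the interaction. Changes of this size or smaller could not be told from the spread between libraries. Larger ones also did not pass the main edgeR test, such as mmd labelled fat body at 2.61 ± 1.15 (SE).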

Other observations

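A pair of loci, chosen after their values were seen, had counts that ran alike over the libraries. The locus 989 bp from Atg9, which encodes the transmembrane protein of autophagy, had 387, 335 and 211 counts in control libraries against 866, 544 and 121 in switched ones labelled fat body, and 72, 11 and 13 against 32, 45 and 7 labelled gut. A locus on 3L (chr3L:13292082-13292388) with no gene within 1000 bp had 351, 299 and 182 against 551, 321 and 91, and 40, 17 and 6 against 15, 35 and 5. Both were highest in switched replicate 1 and lowest in switched replicate 3 labelled fat body, the library that was highest at 128 of the 265 tested shared regions. Labelled gut they were highest in control replicate 1 although that library is shallow, as was so among control libraries at 12 of 226 loci with at least 50 counts.

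The second locus at dsx, the sex determination gene, had 54, 149 and 32 counts in control libraries against 197, 151 and 527 in switched ones labelled fat body. Its counts labelled gut were 4, 26 and 61 against 18, 120 and 15. The gene Sox100B, for an SRY-box transcription factor, had a pair of shared loci with at most 4 counts in any library, where both tables list a region that the deposited counts hardly cover.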
